A study of Mus musculus with 66 samples.

Results

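The comparison set the BC57 mouse bladder cancer cell line against normal mouse urothelium, both formalin-fixed and paraffin-embedded (FFPE), in total RNA libraries made with the Ovation SoLo kit from 50 pg of RNA. Libraries were chosen by their titles: 6 of the 66 in the series carry these samples, this preservation, kit and input, 3 for BC57 and 3 for urothelium. BC57 cells had been grown in DMEM with 10% fetal bovine serum, and a harvested pellet of this single line was split into a frozen and a fixed portion. Urothelium came from 9 mice, and that of each mouse was split likewise. The fixed portions of both spent 24 hours in buffered formalin before embedding, and RNA was taken from 10 sections of 5 µm. The kit primes at random, keeps the strand, removes ribosomal sequences after library synthesis and was run with a number of PCR cycles set for each input and sample type. The sources used here do not state strain, sex or age of the mice, the origin of the BC57 line or the way in which the 9 mice were combined. Nothing says that libraries of 1 group came from separate cultures or mice, so p-values measure only the spread between these libraries, which may be technical. The other 3 pairs of groups served for values side by side, each with 3 BC57 and 3 urothelial libraries: frozen (FF) RNA at 50 pg and FFPE RNA at 2 ng, both with the same kit, and poly(A)-selected FF RNA at 1 µg.

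Urothelium is the stratified lining of the bladder. Its surface umbrella cells carry plaques of uroplakins, its basal cells express Trp63, Krt5 and Shh, and it rests on a stroma of fibroblasts, vessels and leukocytes. It divides rarely in the healthy adult bladder, whereas a cell line divides continuously and contains no stroma. Formalin crosslinks and fragments RNA, which reduces the number of molecules that can be copied, and picogram inputs hold few copies of any transcript expressed at a low level.

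Total counts were 3588265, 4539909 and 4322300 in the BC57 libraries and 2985318, 4067831 and 3466780 in the urothelial libraries. Levels below are in CPM, counts divided by the scaled size of each library, and the 3 values of a group stand in the order of the replicate numbers. Of 39179 genes, 13584 had enough counts to be tested. By edgeR's quasi-likelihood test, at an adjusted p under 0.05, 4554 of them differed (33.5%): 1999 were higher (14.7%) and 2555 lower (18.8%) in BC57 cells, and 4220 changed by at least 2-fold. The libraries of both groups did not overlap for 6814 genes (50.2%). The median log2 fold change over all genes tested was -0.10, and at an unadjusted p under 0.05 the count was 5749. Between repeat libraries the log2 levels correlated at 0.875 to 0.885 in BC57 cells and at 0.815 to 0.834 in urothelium. After every library was thinned to 928722 counts, 10903 ± 168 genes reached 5 counts in BC57 cells and 12021 ± 90.5 in urothelium (mean ± SD, n = 3). That difference of -1117 genes had an exact two-sided permutation p of 0.1, the smallest that 3 against 3 libraries allow (0.125 after adjustment over the 5 measures compared).

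The 12 genes of largest fitted fold change that were higher in BC57 cells included a serpin, an endocytic receptor, regulators of mitosis and an embryonic claudin. A ranking by the fit at 50 pg favours genes with no count in a group. Hmga2, not among the 12, had a log2 fold change of 10.28 in FFPE RNA at 2 ng. Serpinb2 (GENCODE M21 on mm10, chromosome 1, 107511423 to 107535478), a protease inhibitor of the plasminogen system, stood at 337, 353 and 521 CPM in the BC57 libraries and had no count in the urothelial libraries. It was at least 1403-fold higher, a bound that sets 3 counts over the 3 libraries of the group without a count. Such bounds cover counting error only, not the spread between libraries, and are not minimum folds for other libraries. The megalin gene Lrp2, which encodes an endocytic receptor, stood at 73.2, 112 and 154 CPM and was at least 397-fold higher. Bub1, a kinase of the spindle checkpoint, stood at 92.1, 119 and 103 CPM (at least 365-fold higher). Foxm1, a transcription factor that drives genes of late cell cycle, stood at 132, 127 and 74.8 CPM (at least 382-fold higher by this bound). In FFPE RNA at 2 ng, where urothelium had Foxm1 counts, its log2 fold change was only 4.86. At 50 pg these 4 genes had no count in any urothelial library, so every BC57 library lay above every urothelial one. The stress keratin Krt6a stood at 95.5, 75.7 and 119 CPM, also without a urothelial count (at least 332-fold higher). Cldn6, a tight junction claudin of embryonic epithelia, read 319.5, 354 and 262 CPM in BC57 cells against 0, 0.247 and 0 CPM in urothelium, a single urothelial read, at a ratio of 3239 (95% counting interval 581 to 127954). The other 6 were the lymphatic growth gene Ccbe1 (at least 469.8-fold higher), the stem cell transcript Lncenc1 (at least 293-fold), the phosphatase subunit Ppp2r2c (at least 288-fold), the centromere gene Cenpi (at least 223-fold), AA467197 (at least 211-fold) and the ankyrin repeat gene Ankrd1 (at least 205-fold). None of the 6 had a urothelial count.

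**Figure D1:**
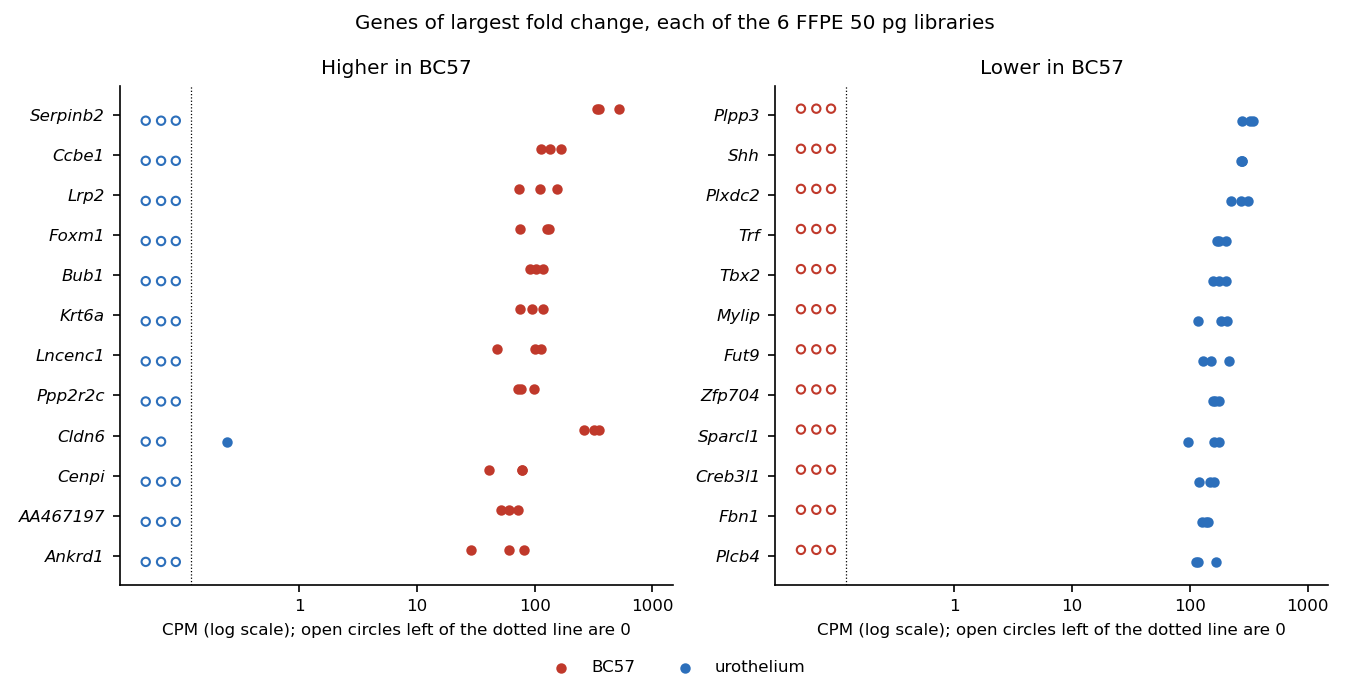
CPM (log axis) of the 24 named genes of largest fitted fold change at 50 pg, 12 per direction. Each of the 3 BC57 (red) and 3 urothelial (blue) FFPE libraries made from 50 pg is shown. Open circles left of the dotted line are libraries with no count. In 23 of the 24 genes all 3 libraries of the lower group had no count, and Cldn6 had 1 read in 1 urothelial library. A ranking by fitted fold change favours such genes, so these zeros are no separate result.

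In the other direction, all 12 genes had no count in any BC57 library. The lipid phosphatase gene Plpp3 stood at 344, 322 and 275 CPM in urothelium and was lower in BC57 cells by at least 1294-fold. Shh (chromosome 5, 28456815 to 28467256), the hedgehog ligand made by basal urothelial cells, stood at 275, 276 and 272 CPM and was at least 1135-fold lower. The transferrin gene Trf stood at 169.5, 177 and 201 CPM (at least 756-fold lower). Tbx2, a transcription factor of bladder mesenchyme among other tissues, stood at 178, 157 and 201 CPM (at least 733-fold lower). For each of these genes the urothelial libraries differed by far less than the distance to the BC57 libraries. The other 8 were Plxdc2 (at least 1122-fold lower), Zfp704 (at least 689-fold), the ubiquitin ligase gene Mylip (at least 679-fold), the fucosyltransferase gene Fut9 (at least 668-fold), the matricellular gene Sparcl1 (at least 601-fold), the membrane-bound transcription factor gene Creb3l1 (at least 583-fold), the fibrillin gene Fbn1 (at least 561-fold) and the phospholipase gene Plcb4 (at least 559-fold). In these bulk samples fewer cells of a type and less RNA per cell cannot be told apart. The summed level of 15 fibroblast genes, Fbn1 among them, moved with the lower genes, at 36.9 to 62.0 CPM in BC57 cells and 15968 to 16802 CPM in urothelium, and its part in them was not tested.

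Urothelial differentiation genes were mostly lower in BC57 cells. All 19 genes listed passed the filter on low counts, and 11 fell, 4 rose and 4 did not pass the test, against 18.8% lower and 14.7% higher over all genes. The list median was -3.01 on the log2 scale, against -0.10 over all genes. Uroplakins are the plaque proteins of the urothelial surface. Upk1a (chromosome 7, 30603092 to 30612847) read 0.835, 8.33 and 1.41 CPM in BC57 cells against 1688, 1707 and 1593 CPM in urothelium (log2 fold change -8.81, SE 0.55, adjusted p = 4.11e-07). Upk2 read 0.835, 0.658 and 1.18 CPM in BC57 cells against 406, 293 and 310.2 CPM in urothelium (log2 fold change -8.51, SE 0.35, adjusted p = 1.80e-08). Upk3a read 0.835, 5.26 and 0.705 CPM in BC57 cells against 621, 590.2 and 606 CPM in urothelium (log2 fold change -7.98, SE 0.52, adjusted p = 5.16e-07). The highest BC57 library of these 3 genes reached 8.33 CPM and the lowest urothelial library 293 CPM. Upk3b read 0.278, 0.658 and 0.470 CPM in BC57 cells against 219.6, 291 and 206 CPM in urothelium (log2 fold change -8.86, SE 0.41, adjusted p = 4.41e-08). Upk1b, whose product pairs with Upk3a, fell by 2.73. Upk3bl, a uroplakin-like gene, rose by 4.05, a call that was lost without BC57 library 3 (3.67, adjusted p = 0.0621). Transcription factors of urothelial differentiation were lower: Grhl3 changed by -6.53, Gata3 by -5.42, Tbx3 by -4.61, Pparg by -3.84 and Foxa1 by -3.01, while Elf3 (-0.36, adjusted p = 0.651) did not pass. The keratins of simple epithelium went the other way. Krt7 read 1123, 1155 and 1051 CPM in BC57 cells against 399, 365 and 340.4 CPM in urothelium (log2 fold change 1.59, SE 0.13, adjusted p = 3.09e-06), Krt8 rose by 2.13 and Krt18 by 1.57, while Krt19 (0.33) and Krt20 (-0.06) did not pass. The summed level of the list was 2983 to 3292 CPM in BC57 cells and 6475 to 6781 CPM in urothelium. Urothelium thus held its defining markers, and BC57 cells kept epithelial keratins with Upk1a, Upk2, Upk3a and Upk3b near 0.

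Basal and squamous genes split in both directions. Of 17 genes, 13 passed the filter, 6 fell and 4 rose (median -0.80), against 18.8% lower and 14.7% higher over all genes. Trp63, the master transcription factor of basal cells, read 0.557, 0.439 and 0.235 CPM in BC57 cells against 396, 434 and 512 CPM in urothelium (log2 fold change -10.00, SE 0.34, adjusted p = 4.08e-09). The basal keratin gene Krt15 read 0.278, 0.439 and 0.470 CPM in BC57 cells against 213, 203 and 155 CPM in urothelium (log2 fold change -8.77, SE 0.43, adjusted p = 7.09e-08). Both were near 0 in every BC57 library. Krt5 fell by 5.73 and the cornified envelope gene Ivl by 7.97. Sprr1a, another envelope gene, kept a BC57 level, at 109.9, 102 and 70.1 CPM in BC57 cells against 1659, 1563 and 1374 CPM in urothelium (log2 fold change -4.03, SE 0.19, adjusted p = 4.81e-08). Krt14, the usual partner of Krt5, went against it: it read 128, 91.9 and 102 CPM in BC57 cells against 0, 0.247 and 0 CPM in urothelium, a ratio of 1096 (95% counting interval 196 to 43332). The hyaluronan receptor gene Cd44 read 410.3, 462 and 534 CPM in BC57 cells against 198, 205 and 225 CPM in urothelium and rose by 1.16. The desmosomal cadherin gene Dsc3 read 21.7, 17.3 and 26.3 CPM in BC57 cells against 0.341, 0 and 0 CPM in urothelium, a ratio of 225 (95% counting interval 39.97 to 8904). Krt16, a partner of Krt6a, stayed below the filter with 35, 2 and 25 counts in BC57 cells and none in urothelium. Krt6a and Krt6b are close paralogs whose reads may be split in counting.

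All 21 junction genes passed the filter, 7 rose, 4 fell and 10 did not pass (median 0.40), against 14.7% higher and 18.8% lower over all genes. The share that fell was near that of all genes. Besides Cldn6, the claudin gene Cldn3 was higher, at 104, 61.6 and 72.2 CPM in BC57 cells against 0, 0.494 and 0 CPM in urothelium, a ratio of 402 (95% counting interval 111 to 3324). The claudin gene Cldn8 was lower, at 0.278, 0 and 0 CPM in BC57 cells against 189, 142 and 155 CPM in urothelium, a ratio of urothelium to BC57 cells of 1979 (95% counting interval 355 to 78198). The scaffold gene Tjp1 rose by 1.07 (SE 0.15) and the adhesion gene Epcam by 2.63. The desmoglein gene Dsg2 read 35.4, 27.2 and 8.94 CPM in BC57 cells against 237, 307 and 297 CPM in urothelium and fell by 3.56. E-cadherin (Cdh1) read 248, 205 and 254 CPM in BC57 cells against 351, 340.2 and 265 CPM in urothelium (log2 fold change -0.44, SE 0.19, adjusted p = 0.0964). Its groups did not overlap but the difference missed the threshold, and it passed without urothelium library 3 (-0.56, adjusted p = 0.0494).

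None of the genes of mesenchymal transition rose by edgeR's quasi-likelihood test. Of 15 listed, 12 passed the filter, 7 fell and 5 did not pass (median -1.98), against 14.7% higher and 18.8% lower over all genes. Some members did rise in the other comparisons. In FF RNA at 50 pg 1 of 13 rose and 7 fell, in FFPE RNA at 2 ng 2 of 13 rose and 11 fell, and in poly(A) RNA 4 of 15 rose and 11 fell. The gelatinase gene Mmp2 read 0.278, 0 and 0.235 CPM in BC57 cells against 417, 319 and 323 CPM in urothelium, a ratio of urothelium to BC57 cells of 2161 (95% counting interval 598 to 17848). Zeb1, a repressor of E-cadherin, fell by 7.59, Snai1 by 5.02 and the matrix gene Tgfbi by 7.41. Fibronectin (Fn1) read 280.3, 299.8 and 228 CPM in BC57 cells against 702, 780.0 and 707 CPM in urothelium and fell by 1.44, whereas in poly(A) RNA it was higher in BC57 cells (0.51, adjusted p = 5.28e-10). These genes are also expressed by stromal cells, whose summed markers moved in the same direction, and the part of those cells was not tested.

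Tumour and embryonic genes were largely higher in BC57 cells. Of 16 genes listed, 14 passed the filter, 10 rose and 1 fell, and the median was 6.74, or 5.13 with genes without a count in a group at their bound. That list was put together with earlier results of these samples known, so its direction is no independent evidence. Over all genes 14.7% were higher and 18.8% lower. Hmga2 (chromosome 10, 120361275 to 120476469), an architectural chromatin protein of embryonic tissue, read 649.9, 655 and 674 CPM in BC57 cells against 0.682, 1.24 and 0.592 CPM in urothelium (log2 fold change 9.52, SE 0.28, adjusted p = 1.28e-09). The gene of the dynactin-associated membrane protein Dynap read 708, 739 and 678 CPM in BC57 cells against 0.341, 0.247 and 1.48 CPM in urothelium (log2 fold change 9.96, SE 0.37, adjusted p = 8.92e-09). The mesothelin gene Msln read 311, 354 and 219 CPM in BC57 cells against 0, 0.247 and 0.592 CPM in urothelium, a ratio of 1019 (95% counting interval 348 to 4943). The lowest BC57 library of these 3 genes stood at 219 CPM and the highest urothelial library at 1.48 CPM. Serpinb7, a serpin of keratinocytes, stood at 20.3, 23.9 and 29.4 CPM with no urothelial count (at least 85.4-fold higher). The chromatin gene Hmga1 rose by 2.68 and the RNA-binding gene Igf2bp2 by 2.21. Sox17, a transcription factor of endoderm and endothelium, was the member that fell, with no BC57 count (at least 64.3-fold lower), as endothelial genes did. The RNA-binding gene Igf2bp3 (-1.37) did not pass. The RNA-binding gene Lin28b stayed below the filter with 0, 14 and 28 counts in BC57 cells and none in urothelium.

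Genes of mitosis were higher in BC57 cells with 1 exception. All 30 passed the filter and 29 rose, against 14.7% higher over all genes. For all 30 the libraries of the groups did not overlap, against 50.2% over all genes. The list median was 4.61. The exception was the spindle kinase gene Aurka (log2 fold change 2.61, SE 0.98, adjusted p = 0.0598), which passed without urothelium library 3 (2.03, adjusted p = 0.0243). Mki67, which encodes the proliferation marker Ki-67, read 742, 705 and 728 CPM in BC57 cells against 13.98, 34.3 and 24.6 CPM in urothelium (log2 fold change 4.89, SE 0.29, adjusted p = 2.79e-07). Top2a, the topoisomerase that untangles chromosomes, read 480.4, 518 and 523 CPM in BC57 cells against 8.19, 3.46 and 2.96 CPM in urothelium (log2 fold change 6.73, SE 0.35, adjusted p = 1.02e-07). Cdk1, the kinase that starts mitosis, read 92.4, 134 and 89.1 CPM in BC57 cells against 0, 0.247 and 0 CPM in urothelium, a ratio of 1103 (95% counting interval 198 to 43596). Every BC57 library of these genes stood above every urothelial one. Kif2c, a kinesin that takes microtubules apart, stood at 32.6, 22.8 and 17.9 CPM with no urothelial count (at least 82.7-fold higher). The cyclin gene Ccnb1 rose by 8.93, the ubiquitin-conjugating gene Ube2c by 8.45, the survivin gene Birc5 by 7.49 and the kinase gene Plk1 by 4.13. Summed over the list, levels ran from 4230.1 to 4422 CPM in BC57 cells and from 142.8 to 170.7 CPM in urothelium.

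Promoter windows are shown for 2 mitosis genes that rose and 2 uroplakin genes that fell. Each runs from 250 bases before to 50 bases after the RefSeq start (GRCm38.p6), 5′ to 3′ on the strand of the gene. Capitals mark matches, on either strand, to the cell cycle homology region TTTGAA, the CCAAT box CCAAT, the E2F sites TTTCCCGC and TTTGGCGC, the TATA box TATAAA, the GATA site AGATAA and the forkhead site TGTTTAC. No motif contains another, and the matches shown do not overlap. The windows are those of the 2 mitotic and 2 uroplakin genes of largest fitted fold change at 50 pg that had a window in the table, with Foxm1 named only.
Bub1 (chr2:127831810-127832109, minus strand): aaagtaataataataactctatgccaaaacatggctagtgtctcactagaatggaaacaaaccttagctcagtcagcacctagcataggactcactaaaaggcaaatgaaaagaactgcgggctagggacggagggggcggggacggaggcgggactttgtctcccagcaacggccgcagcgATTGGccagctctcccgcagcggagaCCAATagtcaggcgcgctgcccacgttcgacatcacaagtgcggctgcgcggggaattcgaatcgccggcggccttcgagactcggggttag
Cdk1 (chr10:69352863-69353162, minus strand): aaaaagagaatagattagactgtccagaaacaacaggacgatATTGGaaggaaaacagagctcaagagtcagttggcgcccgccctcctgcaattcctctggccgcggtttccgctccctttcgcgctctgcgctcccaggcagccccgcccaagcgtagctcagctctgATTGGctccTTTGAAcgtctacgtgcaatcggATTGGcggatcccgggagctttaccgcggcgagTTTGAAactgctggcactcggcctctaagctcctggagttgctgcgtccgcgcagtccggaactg
Upk3b (chr5:136038246-136038545, plus strand): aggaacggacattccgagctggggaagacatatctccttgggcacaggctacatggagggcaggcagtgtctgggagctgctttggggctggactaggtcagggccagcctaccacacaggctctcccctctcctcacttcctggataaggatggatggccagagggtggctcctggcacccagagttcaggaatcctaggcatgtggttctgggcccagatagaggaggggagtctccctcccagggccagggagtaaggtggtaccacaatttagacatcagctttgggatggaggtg
Upk1a (chr7:30612685-30612984, minus strand): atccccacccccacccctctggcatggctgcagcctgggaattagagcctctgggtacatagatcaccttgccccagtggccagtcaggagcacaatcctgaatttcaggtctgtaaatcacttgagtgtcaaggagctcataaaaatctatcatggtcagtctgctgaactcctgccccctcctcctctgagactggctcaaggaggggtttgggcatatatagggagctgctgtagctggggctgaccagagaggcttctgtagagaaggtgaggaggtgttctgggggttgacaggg
The Bub1 window held 2 CCAAT matches and the Cdk1 window 3 CCAAT and 2 TTTGAA matches. The Upk3b and Upk1a windows held none of the 7 motifs. Of the 24 mitosis genes with a window in the table, 17 (70.8%) held TTTGAA and 18 (75%) held CCAAT, against 17.9% and 37.4% of all 32851 promoters of this length. A listed gene counted if any of its windows held the motif, whereas all promoters were counted window by window. The shares are therefore in unlike units, and a gene with several windows is favoured. Of the 13 urothelial genes with a window, 1 (7.69%) held TTTGAA and 5 (38.5%) CCAAT. Neither E2F form was in any of these windows, and over all promoters their shares were 1.07% and 0.514%. TATAAA was held by 1 mitosis and 3 urothelial genes (13.6% of all promoters), AGATAA by 2 and 3 (11.2%) and TGTTTAC by 1 and 1 (3.65%). These matches are descriptions of letters and not of bound sites.

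DNA replication genes rose in 21 of 30 cases. All passed the filter, 8 did not pass and 1 fell (median 3.41), against 14.7% higher and 18.8% lower over all genes. Uhrf1, which maintains DNA methylation at the fork, read 129, 59.9 and 149.6 CPM in BC57 cells against 0.341, 0.494 and 0 CPM in urothelium, a ratio of 382 (95% counting interval 130.3 to 1853). Rrm1, the large subunit of ribonucleotide reductase, read 301, 279 and 259 CPM in BC57 cells against 33.1, 18.5 and 28.1 CPM in urothelium (log2 fold change 3.40, SE 0.27, adjusted p = 2.94e-06). Its partner Rrm2 read 238, 233 and 241 CPM in BC57 cells against 12.3, 9.64 and 0 CPM in urothelium (log2 fold change 5.02, SE 0.73, adjusted p = 2.71e-04). For these 3 genes no urothelial library reached a BC57 library, though 1 urothelial library had no Rrm2 count at all. The helicase genes Mcm2 to Mcm7 all rose, by 2.98 (Mcm2) to 5.08 (Mcm5), and the sliding clamp gene Pcna rose by 4.04. The thymidylate synthase gene Tyms (0.65) and the origin licensing gene Cdc6 (2.49) did not pass. Gins2, a subunit of the replicative helicase, fell by 1.47 (SE 0.41, adjusted p = 0.0153), a call that was lost without urothelium library 2 (-1.01, adjusted p = 0.105).

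Replication-dependent histones, whose mRNAs end in a stem-loop in place of a poly(A) tail and accumulate in S phase, were higher in BC57 cells. Of 60 genes, 54 passed the filter, 47 rose and 7 did not pass (median 4.76), against 14.7% higher over all genes. Hist1h1e, a linker histone gene, read 394, 357 and 437 CPM in BC57 cells against 25.9, 33.4 and 43.5 CPM in urothelium (log2 fold change 3.53, SE 0.25, adjusted p = 9.87e-07). Hist1h4d, a core histone gene, read 565, 574.1 and 547 CPM in BC57 cells against 117, 77.1 and 77.6 CPM in urothelium (log2 fold change 2.64, SE 0.21, adjusted p = 2.34e-06). Hist1h2ac stood at 60.4, 51.3 and 56.4 CPM with no urothelial count (at least 192-fold higher by the bound), and Hist1h2ae at 38.7, 45.6 and 50.1 CPM, also with none (at least 156-fold higher). In FFPE RNA at 2 ng, where urothelium had Hist1h2ac counts, its mean was only 37.7 CPM in BC57 cells against 3.04 CPM in urothelium. The summed level of the list was 5458 to 6166 CPM in BC57 cells and 327.4 to 501.5 CPM in urothelium. Histone genes are near-identical copies, so the level of a single copy is uncertain. The median was 3.87 in FF RNA at 50 pg (55 genes tested), 4.73 in FFPE RNA at 2 ng (56) and -1.10 in poly(A) RNA (21). In poly(A) RNA, where tailless mRNAs are not selected, 6 genes were higher and 12 lower. These medians are over different sets of genes, and the reason for the change of sign was not tested.

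**Figure D2:**
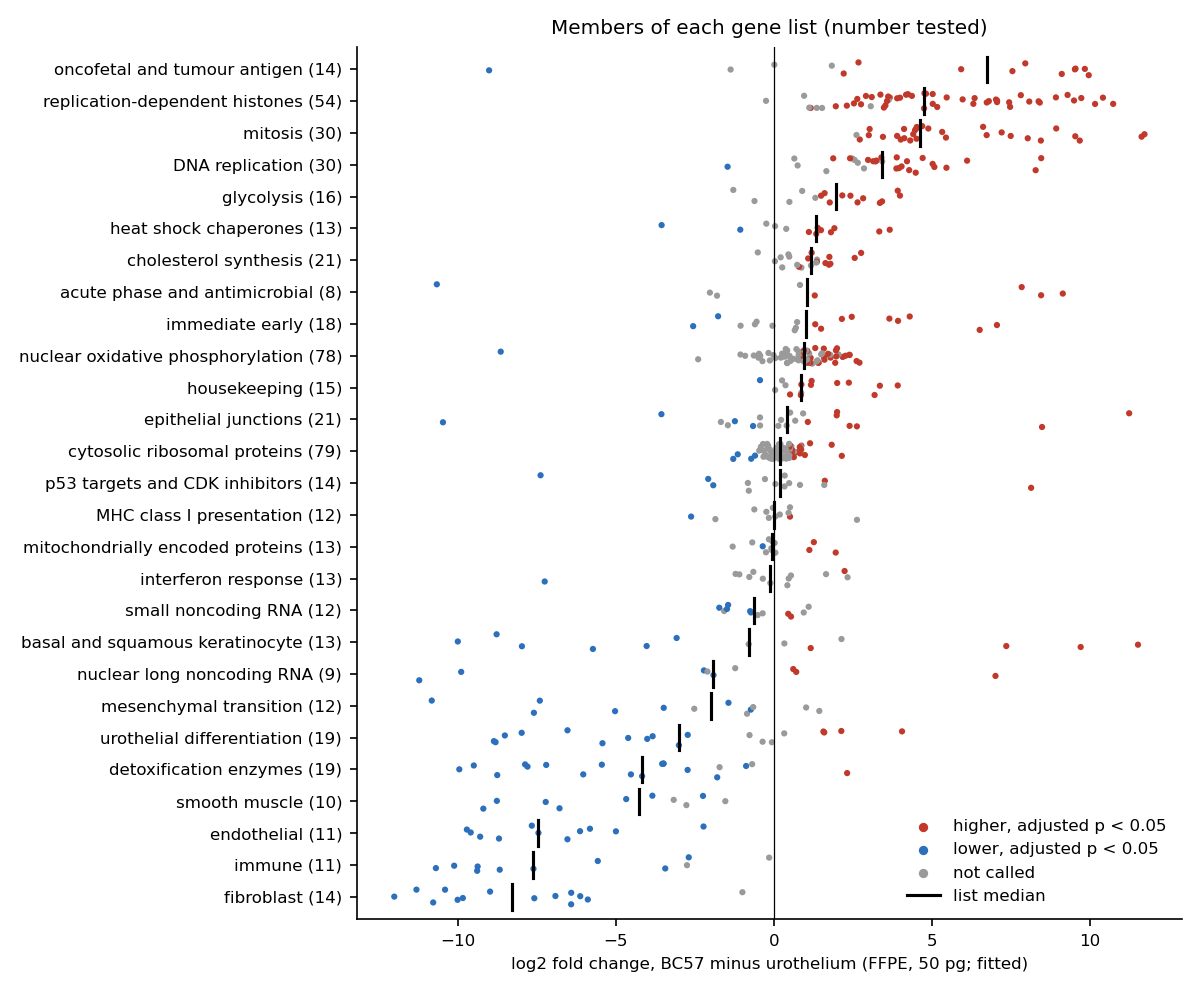
Log2 fold change (BC57 minus urothelium, FFPE, 50 pg) of every tested member of the gene lists with at least 8 tested members; red points rose, blue points fell at an adjusted p under 0.05, grey points did not pass, and black bars are list medians. Mitosis (median 4.61) and histone genes (4.76) lie to the right, and fibroblast (-8.28), immune (-7.61) and endothelial genes (-7.45) to the left.

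Glycolytic genes were higher in BC57 cells: all 16 passed the filter, 11 rose and 5 did not pass (median 1.97). Over all genes 14.7% were higher and 18.8% lower, the shares to set beside each list of this paragraph. Ldha, which makes lactate, read 932, 1028 and 974 CPM in BC57 cells against 93.8, 92.9 and 87.0 CPM in urothelium (log2 fold change 3.42, SE 0.15, adjusted p = 2.85e-08). The enolase gene Eno1 read 479.6, 562 and 538 CPM in BC57 cells against 12.3, 44.5 and 42.03 CPM in urothelium (log2 fold change 3.99, SE 0.39, adjusted p = 1.28e-05). Both were separate in every library. Pgk1, the phosphoglycerate kinase gene, rose by 3.92 (SE 0.25) and the pyruvate kinase gene Pkm by 1.49 (SE 0.15), while the hexokinase gene Hk2 (0.89) did not pass. Of 21 cholesterol synthesis genes 10 rose and 11 did not pass (median 1.17). The demethylase gene Cyp51 read 176, 194 and 136 CPM in BC57 cells against 27.6, 53.9 and 4.14 CPM in urothelium (log2 fold change 2.56, SE 0.62, adjusted p = 0.00775), with a wide spread in urothelium. Of 84 nuclear genes of oxidative phosphorylation, 78 passed the filter, 27 rose and 1 fell (median 0.95). The ATP synthase gene Atp5b read 566, 599 and 577 CPM in BC57 cells against 156, 153 and 135 CPM in urothelium (log2 fold change 1.97, SE 0.16, adjusted p = 3.11e-06). The gene that fell was Cox6b2, the testis isoform of a cytochrome oxidase subunit, which had no BC57 count (at least 51.5-fold lower).

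Genes often used as references were not level between the samples. Of 15 such genes 10 rose, 1 fell and 4 did not pass (median 0.87), against 14.7% higher and 18.8% lower over all genes. Gapdh read 1119.5, 1308 and 1244 CPM in BC57 cells against 92.8, 108 and 158 CPM in urothelium (log2 fold change 3.35, SE 0.20, adjusted p = 3.17e-07). Actb read 8134, 7874 and 7728 CPM in BC57 cells against 1609, 1545 and 1434 CPM in urothelium (log2 fold change 2.37, SE 0.07, adjusted p = 1.46e-09). The tubulin gene Tubb5 rose by 3.19. The elongation factor gene Eef1a1 read 3239, 3257 and 3143 CPM in BC57 cells against 4323, 4536 and 4222 CPM in urothelium (log2 fold change -0.44, SE 0.07, adjusted p = 4.66e-04) and was the one that fell. The succinate dehydrogenase gene Sdha (0.37) and the glucuronidase gene Gusb (0.04) did not pass. Of 82 ribosomal protein genes 79 passed the filter, 18 rose, 4 fell and 57 did not pass (median 0.20). Over all genes, again, 14.7% were higher and 18.8% lower. Rps2 read 1591, 1574 and 1551 CPM in BC57 cells against 417, 438 and 473 CPM in urothelium and rose by 1.83 (SE 0.11). Rps3 read 622, 592 and 585 CPM in BC57 cells against 1397, 1401 and 1589.9 CPM in urothelium and fell by 1.29 (SE 0.11). These genes have many processed pseudogenes, so single members are uncertain.

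Detoxification enzymes were lower in BC57 cells. All 19 passed the filter, 16 fell, 1 rose and 2 did not pass (median -4.17), against 18.8% lower over all genes. The glutathione transferase gene Gstm1 read 44.8, 27.2 and 41.9 CPM in BC57 cells against 8327, 8721 and 8211 CPM in urothelium (log2 fold change -7.80, SE 0.19, adjusted p = 2.93e-10). The glucuronosyltransferase gene Ugt1a6a read 0.835, 1.97 and 0 CPM in BC57 cells against 875, 724 and 553.3 CPM in urothelium (log2 fold change -9.49, SE 0.51, adjusted p = 1.31e-07). The cytochrome P450 gene Cyp4f15 read 0.278, 0.439 and 0.470 CPM in BC57 cells against 195, 189 and 178 CPM in urothelium (log2 fold change -8.75, SE 0.42, adjusted p = 5.59e-08). Of these, Gstm1 kept a measurable BC57 level, while the others were near 0. Gsta3 had no BC57 count and stood at 48.8, 19.02 and 30.2 CPM in urothelium (at least 129-fold lower). The aldehyde dehydrogenase gene Aldh2 read 0.557, 0 and 0 CPM in BC57 cells against 61.0, 45.7 and 33.2 CPM in urothelium, a ratio of urothelium to BC57 cells of 285 (95% counting interval 78.5 to 2361). The glutathione transferase gene Gstp1 rose by 2.32, a call that was lost without any 1 of 5 libraries, all but urothelium library 3 (adjusted p from 0.0620 to 0.0953). The list's summed level was 392.4 to 464 CPM in BC57 cells and 10743 to 11507 CPM in urothelium. Stromal cells express some of these enzymes too, and their part was not tested.

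Of 7 gasdermin genes, which encode pore-forming proteins, 4 passed the filter and 2 fell, against 18.8% lower over all genes. Gsdmc2 read 0, 0.658 and 0.941 CPM in BC57 cells against 169, 243 and 203 CPM in urothelium (log2 fold change -8.44, SE 0.54, adjusted p = 4.44e-07), and Gsdmc3 had no BC57 count (at least 155-fold lower), although these copies are near-identical and reads may be split. Gsdme (-0.78) and Gsdmd (-2.06) did not pass.

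Defence genes went in both directions. Of 13 acute-phase and antimicrobial genes, 8 passed the filter, 4 rose and 1 fell, against 14.7% higher and 18.8% lower over all genes. Serpina3n, an acute-phase protease inhibitor, was the one that fell: it read 0.278, 0 and 0 CPM in BC57 cells against 222, 176 and 158 CPM in urothelium, a ratio of urothelium to BC57 cells of 2271 (95% counting interval 407 to 89741). The protease inhibitor gene Slpi stood at 19.8, 23.9 and 11.99 CPM with no urothelial count (at least 64.3-fold higher). The lactoferrin gene Ltf stood at 18.1, 6.36 and 10.1 CPM, also with none (at least 38.1-fold higher), and the antiprotease gene Wfdc2 rose by 1.29. Of 12 genes of MHC class I presentation, 1 rose, 1 fell and 10 did not pass, and the median was 0.01, or -0.05 with DESeq2's size factors. B2m, the light chain of MHC class I, read 847, 749 and 859 CPM in BC57 cells against 645, 526 and 552.7 CPM in urothelium (log2 fold change 0.51, SE 0.14, adjusted p = 0.0126). The heavy chain gene H2-K1 read 206, 211 and 184 CPM in BC57 cells against 183, 164 and 180.3 CPM in urothelium (log2 fold change 0.19, SE 0.19, adjusted p = 0.509). B2m was thus higher in every BC57 library, while H2-K1 did not pass. Of 17 interferon response genes 13 passed the filter, 1 rose, 1 fell and 11 did not pass. In this list and that of MHC class I, both shares were below those over all genes.

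Immediate early genes respond to growth factors and stress within minutes. Of 20 such genes 18 passed the filter, 9 rose, 2 fell and 7 did not pass (median 1.02). Over all genes the shares were 14.7% higher and 18.8% lower. Fosl1, an AP-1 gene, read 46.5, 70.0 and 80.9 CPM in BC57 cells against 0.341, 0 and 1.78 CPM in urothelium (log2 fold change 6.51, SE 0.90, adjusted p = 1.81e-04). Egr1, a zinc finger transcription factor gene, read 208, 316 and 257 CPM in BC57 cells against 7.50, 16.6 and 26.9 CPM in urothelium (log2 fold change 3.93, SE 0.41, adjusted p = 2.30e-05). Neither overlapped between the groups. Fosb rose by 4.30, Myc by 3.65 and Klf6 by 2.46, while Fos (-0.05), Jun (-0.60) and Junb (0.70) did not pass. The antiproliferative gene Btg2 fell by 2.56.

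Of 13 chaperone genes 8 rose, 2 fell and 3 did not pass (median 1.34), against 14.7% higher and 18.8% lower over all genes. Hsp90aa1 read 1175, 1074 and 1216 CPM in BC57 cells against 61.4, 104 and 107 CPM in urothelium (log2 fold change 3.66, SE 0.22, adjusted p = 2.52e-07), the mitochondrial chaperonin gene Hspd1 rose by 3.33 and Hspa8 by 1.39. The stress-inducible genes Hspa1a (-3.55) and Hspa1b (-1.06) fell, but they are near-identical copies. The call of Hspa1a was lost without urothelium library 2 (adjusted p = 0.0614), and that of Hspa1b without any 1 of 5 libraries, all but urothelium library 1 (adjusted p from 0.0569 to 0.183).

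Of 16 p53 targets and inhibitors of cyclin-dependent kinases 14 passed the filter, 2 rose, 3 fell and 9 did not pass, shares near those over all genes (14.7% higher and 18.8% lower). Cdkn2a, which encodes the Ink4a and Arf tumour suppressors, read 44.3, 41.9 and 25.4 CPM in BC57 cells against 0.341, 0 and 0 CPM in urothelium, a ratio of 382 (95% counting interval 68.3 to 15136). Trp53 rose by 1.61. The p53 target Ccng1 read 64.9, 66.0 and 82.5 CPM in BC57 cells against 326, 291 and 286 CPM in urothelium (log2 fold change -2.08, SE 0.21, adjusted p = 1.86e-05), separate in every library. The kinase inhibitor gene Cdkn1a (0.82) and Mdm2, the ubiquitin ligase of p53 (-0.28), did not pass.

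Markers of stromal, vascular and immune cells were measured in urothelium and most were lower in BC57 cells. The single genes named below were at or near 0 there, which does not hold for every member. Over all genes 18.8% were lower in BC57 cells. Of 15 fibroblast genes 14 passed the filter, 13 fell and 1 did not pass (median -8.28, or -7.28 when genes lacking BC57 counts take their bound). The collagen gene Col1a1 read 5.29, 4.82 and 4.70 CPM in BC57 cells against 5212, 5109.9 and 4985 CPM in urothelium (log2 fold change -10.01, SE 0.12, adjusted p = 4.24e-13). Col3a1 read 0.835, 1.97 and 1.41 CPM in BC57 cells against 2584, 2544 and 2651 CPM in urothelium (log2 fold change -10.78, SE 0.22, adjusted p = 6.45e-11). These collagens were thus among the abundant RNAs of the urothelial sample. Of 12 endothelial genes 11 passed the filter and all 11 fell, and their sum was 6.54 to 15.5 CPM in BC57 cells against 405.2 to 491 CPM in urothelium. Cdh5, the cadherin of endothelial junctions, read 0.278, 0 and 0 CPM in BC57 cells against 57.6, 39.5 and 46.2 CPM in urothelium. The endothelial receptor gene Tie1 had no BC57 count (at least 119-fold lower). Of 16 immune genes 11 passed the filter, 9 fell and 2 did not pass, with sums of 11.7 to 34.6 CPM against 430.4 to 458 CPM. The leukocyte antigen gene Ptprc had no BC57 count and stood at 29.3, 14.1 and 22.8 CPM in urothelium. The MHC class II gene H2-Ab1 likewise had none and stood at 56.6, 58.8 and 48.3 CPM. Of 11 smooth muscle genes 10 passed the filter, 7 fell and 3 did not pass (median -4.26), with sums of 27.1 to 64.5 CPM against 596 to 653 CPM. Their myosin gene Myh11 read 0.835, 0.439 and 1.65 CPM in BC57 cells against 133, 106 and 92.7 CPM in urothelium (log2 fold change -6.78, SE 0.55, adjusted p = 3.17e-06).

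Erythroid, adipose, neural and skeletal muscle markers were scarce. Haemoglobin genes had at most 2 counts in any library, and of 6 erythroid genes only Alas2 was tested (log2 fold change -0.77, SE 1.01, adjusted p = 0.608). The adipocyte gene Fabp4 read 2.78, 0 and 0 CPM in BC57 cells against 92.8, 161 and 134 CPM in urothelium (log2 fold change -7.21, SE 0.92, adjusted p = 1.02e-04) and was the 1 gene tested of 5. Of 8 Schwann and neural genes 4 were tested and did not pass. Of 8 skeletal muscle genes the titin gene Ttn alone was tested, and it rose: it read 72.4, 62.1 and 77.1 CPM in BC57 cells against 6.48, 7.17 and 5.03 CPM in urothelium (log2 fold change 3.49, SE 0.47, adjusted p = 1.62e-04), while the muscle genes Ckm and Myh1 had no count in any library.

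Nuclear long noncoding RNAs and small RNAs differed in both directions. Of 10 of the former 9 passed the filter, 3 rose and 4 fell, and of 15 of the latter 12 passed, 2 rose and 5 fell, against 14.7% higher and 18.8% lower over all genes. The imprinted transcript Meg3 read 0.278, 0 and 0 CPM in BC57 cells against 282, 227 and 307 CPM in urothelium, a ratio of urothelium to BC57 cells of 3332 (95% counting interval 598 to 131655). Its neighbour Rian read 0, 0.219 and 0.235 CPM in BC57 cells against 216, 153 and 183 CPM in urothelium, a ratio of 1122 (95% counting interval 310.1 to 9269). Malat1, a nuclear speckle RNA, read 4355, 4728 and 5075 CPM in BC57 cells against 22002, 21529 and 22169 CPM in urothelium (log2 fold change -2.21, SE 0.06, adjusted p = 6.78e-10). Neat1, the scaffold of paraspeckles, read 2571, 2444 and 2615 CPM in BC57 cells against 1659, 1639 and 1379 CPM in urothelium (log2 fold change 0.71, SE 0.10, adjusted p = 1.99e-04). The groups of both were separate, with Malat1 lower and Neat1 higher in BC57 cells. Xist, which coats the inactive X chromosome, read 953, 718 and 975 CPM in BC57 cells against 16.7, 0.988 and 3.85 CPM in urothelium (log2 fold change 7.01, SE 0.65, adjusted p = 8.64e-06). Rn7sk, the RNA that holds the elongation factor P-TEFb, read 6059.6, 6778 and 6897 CPM in BC57 cells against 10906, 11446 and 10314 CPM in urothelium (log2 fold change -0.73, SE 0.07, adjusted p = 6.85e-06). Rmrp, the RNA of a mitochondrial RNA processing enzyme, rose by 0.54 (in FF RNA at 50 pg it changed by -0.51), but it overlaps the annotated Ccdc107 gene on the opposite strand, and the sources used here do not say whether counting used the strand.

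The mitochondrial share of counts was 14.7 ± 0.486% in BC57 cells and 12.6 ± 0.473% in urothelium (SD, n = 3, exact two-sided permutation p = 0.1, adjusted 0.125), with all BC57 libraries above all urothelial ones. Of the 13 mitochondrial mRNAs 3 rose, 1 fell and 9 did not pass (median -0.07), against 14.7% higher and 18.8% lower over all genes. The complex I gene mt-Nd1 read 18338, 17319.8 and 18519.7 CPM in BC57 cells against 8256, 8205 and 8434 CPM in urothelium (log2 fold change 1.12, SE 0.05, adjusted p = 2.06e-08). Another complex I gene, mt-Nd2, read 15915, 15517 and 16162 CPM in BC57 cells against 6644, 6574 and 6604 CPM in urothelium (log2 fold change 1.26, SE 0.05, adjusted p = 7.65e-09). mt-Nd3 rose by 1.96 and mt-Nd4 fell by 0.35 (adjusted p = 0.00212). Members of the same complex thus moved in opposite directions. In poly(A) RNA mt-Nd1 (-0.29), mt-Nd2 (-0.34) and mt-Nd3 (-0.41) were lower in BC57 cells. The cytochrome oxidase gene mt-Co1 read 16313, 16088 and 18809 CPM in BC57 cells against 19837, 18409 and 18892 CPM in urothelium (log2 fold change -0.16, SE 0.06, adjusted p = 0.0622). It passed without BC57 library 3 (-0.22, adjusted p = 0.00351) and with DESeq2 (-0.21, adjusted p = 0.0447). Of 20 mitochondrial transfer RNA genes, 13 rose and 7 did not pass (median 1.31). The large ribosomal RNA mt-Rnr2 changed by 0.09 and did not pass.

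Whether the difference between BC57 cells and urothelium itself differed with preservation was tested in the 12 Ovation libraries at 50 pg. In FF RNA 45.2% of the genes tested differed between the samples (5851 of 12959). The interaction (FFPE difference minus FF difference) passed for 66 of 15361 genes (0.430%), 46 in the positive and 20 in the negative direction, with a median over all genes of 0.10. DESeq2 called 142 (79 positive, 63 negative), and 206 passed without a filter on low counts. CPM values quoted for an interaction are scaled over its 12 libraries.

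Mitochondrial RNAs passed more often than that share: 7 of 13 mRNAs, both ribosomal RNAs and 7 of 21 transfer RNAs, all in the positive direction. The call of mt-Rnr1, the small ribosomal RNA, was lost with DESeq2 (adjusted p = 0.0664) and in edgeR with library totals only (0.0871). The single genes described next were chosen after their values were seen. For mt-Co1 the BC57 libraries read 16946, 16802 and 19388 CPM in FFPE and 5901, 6166 and 5679.8 CPM in FF RNA. The urothelial libraries read 20565, 18952 and 19571 CPM in FFPE and 20488, 20739 and 22139 CPM in FF RNA, and the interaction was 1.68, SE 0.08, adjusted p = 1.58e-10. BC57 levels of mt-Co1 were thus higher in FFPE than in FF RNA in every library, while urothelial levels lay close together in both. The cytochrome b gene mt-Cytb had an interaction of 1.63, SE 0.09, adjusted p = 1.58e-10, and the complex I gene mt-Nd6 of 2.02, SE 0.13, adjusted p = 4.94e-09. For the large ribosomal RNA mt-Rnr2 it was 1.05, SE 0.13, adjusted p = 5.07e-05.

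Nuclear noncoding RNAs and collagens were also among the 66, and those named here were chosen after their values were seen. Neat1 read 2671, 2553 and 2695 CPM (FFPE) and 142, 192 and 138 CPM (FF) in BC57 cells. In urothelium it read 1719, 1687 and 1429 CPM (FFPE) and 489, 539 and 495 CPM (FF), with an interaction of 2.39, SE 0.18, adjusted p = 6.82e-08. The sample with the higher Neat1 level was therefore BC57 in FFPE and urothelium in FF RNA. Malat1 read 4524, 4938 and 5232 CPM (FFPE) and 1132, 1212 and 1218 CPM (FF) in BC57 cells against 22809, 22163 and 22964 CPM and 16232, 16759 and 17052 CPM in urothelium, an interaction of 1.603, SE 0.08, adjusted p = 1.58e-10. The interaction was 1.32, SE 0.16, adjusted p = 4.33e-05 for Rn7sk and 0.88, SE 0.16, adjusted p = 0.00874 for the keratin gene Krt18. In the negative direction, the lincRNA gene Gm26917, chosen after its values were seen, read 12350.3, 11798 and 10291 CPM (FFPE) and 9902, 9943 and 7774 CPM (FF) in BC57 cells. In urothelium it read 5815, 5583 and 5357 CPM and 1885, 1685 and 1422 CPM, an interaction of -1.43, SE 0.14, adjusted p = 4.37e-06. Col1a2, also negative, read 1.73, 5.04 and 1.94 CPM in FFPE and 10.4, 9.02 and 14.2 CPM in FF BC57 cells, an interaction of -2.50, SE 0.32, adjusted p = 1.35e-04. That call was lost with libraries thinned to equal depth (adjusted p = 0.0565). FFPE and FF RNA were extracted with different kits, so fixation and extraction cannot be told apart.

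**Figure D3:**
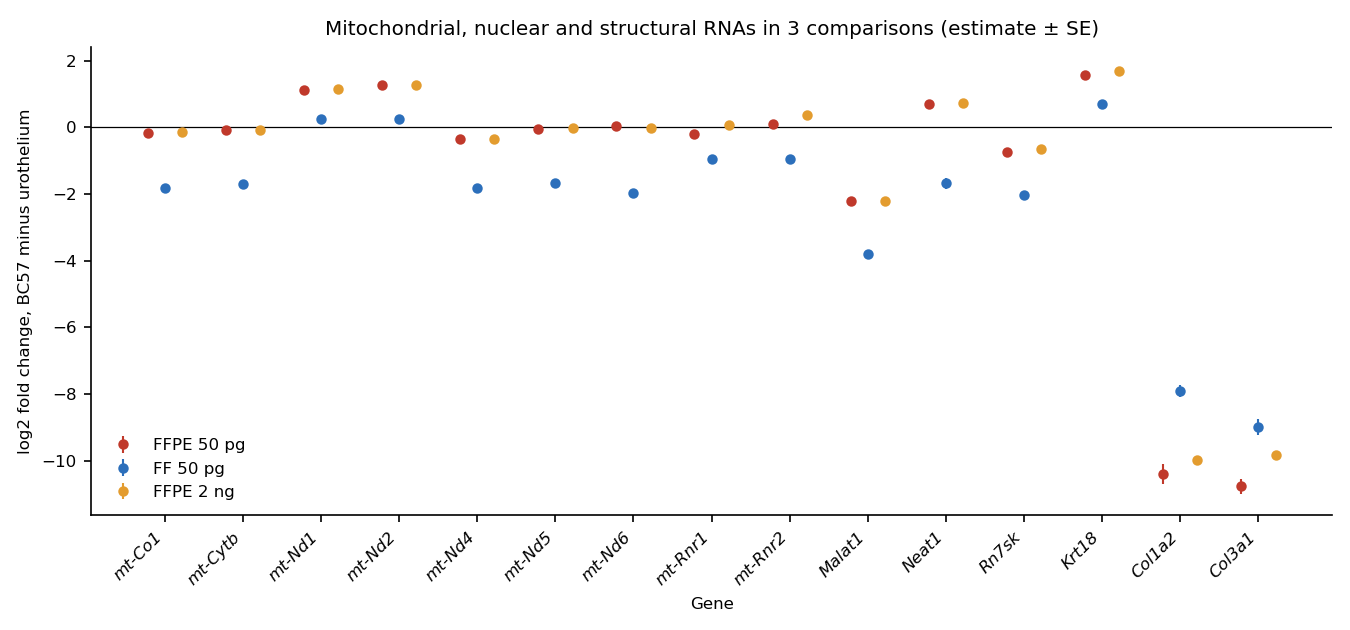
Log2 fold change (BC57 minus urothelium, ± SE) of 15 genes in FFPE RNA at 50 pg (red), FF RNA at 50 pg (blue) and FFPE RNA at 2 ng (orange), each from its own fit on 6 libraries. For mt-Co1 the estimates are -0.16, -1.83 and -0.14, and for Neat1 0.71, -1.68 and 0.74.

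Genes with a group at or near 0 counts at 50 pg of FFPE RNA were also among them. Foxm1 had no urothelial count in FFPE and 4.93, 9.79 and 0.795 CPM in FF urothelium, while BC57 cells read 137, 133 and 77.1 CPM and 129, 147 and 151 CPM. Its call was lost without any 1 of the urothelial FFPE libraries (adjusted p from 0.0529 to 0.0890) and with libraries thinned to equal depth (4.36, adjusted p = 0.388). Mthfd2, a folate enzyme of mitochondria, had 2 counts in all in FFPE urothelium and 6.90, 8.90 and 7.95 CPM in FF urothelium, with an interaction of 4.998, SE 0.71, adjusted p = 5.10e-04, a call lost with thinned libraries (3.16, adjusted p = 0.12). Rcbtb2 had 2 counts in all in FFPE BC57 cells and 15.1, 5.26 and 10.8 CPM in FF BC57 cells (-5.47, SE 1.02, adjusted p = 0.0115). The small GTPase gene Rab15 had 3 counts in all in FFPE BC57 cells and 16.1, 11.3 and 7.42 CPM in FF BC57 cells (-4.67, SE 0.85, adjusted p = 0.00918). These estimates depend on the prior count of the fit and are not bounds.

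The same interaction was taken between 50 pg and 2 ng of FFPE RNA. At 2 ng 77.0% of the genes tested differed between the samples (11183 of 14530). By edgeR's quasi-likelihood test 7 of 15829 genes passed the interaction (0.0442%), 5 positive and 2 negative, and 1399 had an unadjusted p under 0.05. DESeq2 called 166 (74 positive, 92 negative). When 1 of the 6 libraries at 50 pg was left out, between 12 (urothelium library 2) and 44 (BC57 library 2) passed. Foxm1 had no count in urothelium at 50 pg but 4.26, 4.14 and 4.15 CPM at 2 ng, where BC57 cells read 125, 117 and 103 CPM (interaction 6.90, SE 0.92, adjusted p = 0.0210). Hist1h2ac likewise had no urothelial count at 50 pg and 2.29, 3.01 and 3.83 CPM at 2 ng (7.06, SE 0.98, adjusted p = 0.0237). Both had been measured at 2 ng at a few CPM in every urothelial library. Tacc3, a spindle protein gene, had 6 counts in all in urothelium at 50 pg and 4.26, 4.90 and 6.06 CPM at 2 ng (3.11, SE 0.50, adjusted p = 0.0351), a call lost without urothelium library 2 (2.99, adjusted p = 0.0590). Rcbtb2, with 2 counts in all in BC57 cells at 50 pg, read 9.26, 10.2 and 10.8 CPM there at 2 ng (-5.61, SE 0.77, adjusted p = 0.0210). With the replicate number as a block, none of the 7 calls was left (0 genes). For Foxm1, Hist1h2ac, Tacc3 and Rcbtb2 the adjusted p in that edgeR fit lay between 0.0570 and 0.0796. Whether replicate numbers pair the libraries of the 2 inputs was not tested.

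Repeat libraries at 50 pg spread widely for genes of low level. The coefficient of variation that edgeR fitted over all genes describes the spread between repeat libraries within the groups, which may be technical. It was 0.617 at 50 pg of FFPE RNA, 0.403 in FF RNA at 50 pg and 0.0886 in FFPE RNA at 2 ng. In FFPE RNA the median SE of a log2 fold change was 0.67 at 50 pg and 0.21 at 2 ng. Genes were sorted by their level in the 2 ng libraries of the same RNA, and all libraries thinned to equal depth. The 2 ng libraries thus set their own bands, which limits their zeros and favours them in the contrasts that follow. At 5 to 20 CPM, 19.3% of genes in BC57 cells and 25.1% in urothelium had a count in some but not all of the 3 libraries, against 0.529% and 0.582% at 2 ng. The median coefficient of variation of these genes was 0.661 and 0.740, against 0.296 and 0.312 at 2 ng. At 500 CPM or more it was 0.0792 and 0.0806, against 0.0481 and 0.0468 at 2 ng.

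**Figure D4:**
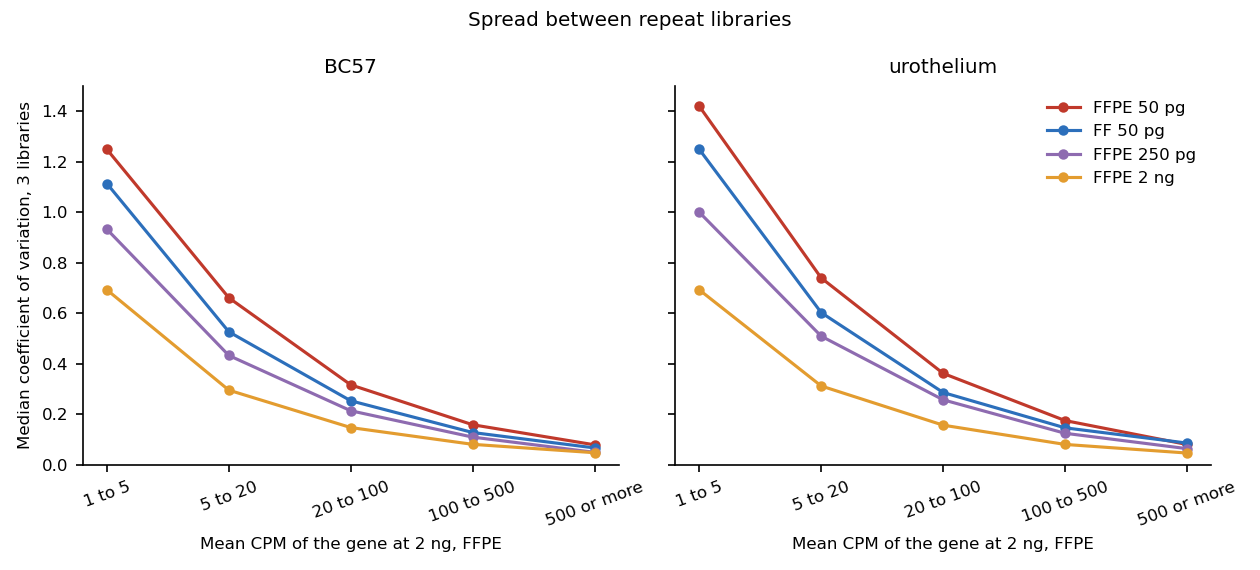
Median coefficient of variation over 3 repeat libraries (all thinned to 928722 counts) against the level of the gene at 2 ng of FFPE RNA, in BC57 cells (left) and urothelium (right), for 4 combinations of preservation and input. At 5 to 20 CPM the FFPE 50 pg libraries lie highest, at 0.661 and 0.740, and the 2 ng libraries lowest, at 0.296 and 0.312. The 2 ng libraries also set the levels, which favours them.

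Of the 11183 genes called at 2 ng of FFPE RNA, 4433 (39.6%) were called in the same direction at 50 pg, 5748 were tested without a call, 998 were not tested and 4 were called in the opposite direction. The share rose with level and with fold change. It was 19.1% for genes under 20 CPM at 2 ng, 37.5% at 20 to 100 CPM, 68.1% at 100 to 500 CPM and 89.9% above. It was 15.1% for log2 changes under 1 and 72.5% for changes of 4 or more. All 265 genes at 100 to 500 CPM with a change of 4 or more were called at 50 pg, and 2.41% of the 540 genes under 20 CPM with a change under 1. Conversely, 4433 of the 4554 genes called at 50 pg (97.3%) were called in the same direction at 2 ng. Among the 4479 of them tested at both inputs, the absolute log2 fold change was larger at 50 pg in 3144 (70.2%), with a median of 2.85 at 50 pg and 2.37 at 2 ng. Those genes were selected on their call at 50 pg. The opposite calls were Sp3os, Tbxas1, Lancl2 and Gm20422. Tbxas1, the thromboxane synthase gene, stood at 10.5 ± 10.2 CPM (SD, n = 3) in BC57 cells at 50 pg with no urothelial count, and its log2 fold change at 2 ng was -1.66. Its call at 50 pg (adjusted p = 0.00864 by edgeR) was lost without BC57 library 1 (adjusted p = 0.0560 by edgeR). The call of Sp3os was lost without any 1 of 4 libraries (adjusted p from 0.0654 to 0.102), that of Lancl2 without any 1 of 3 (0.0562 to 0.136) and that of Gm20422 without any 1 of the 6 (0.0571 to 0.107).

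**Figure D5:**
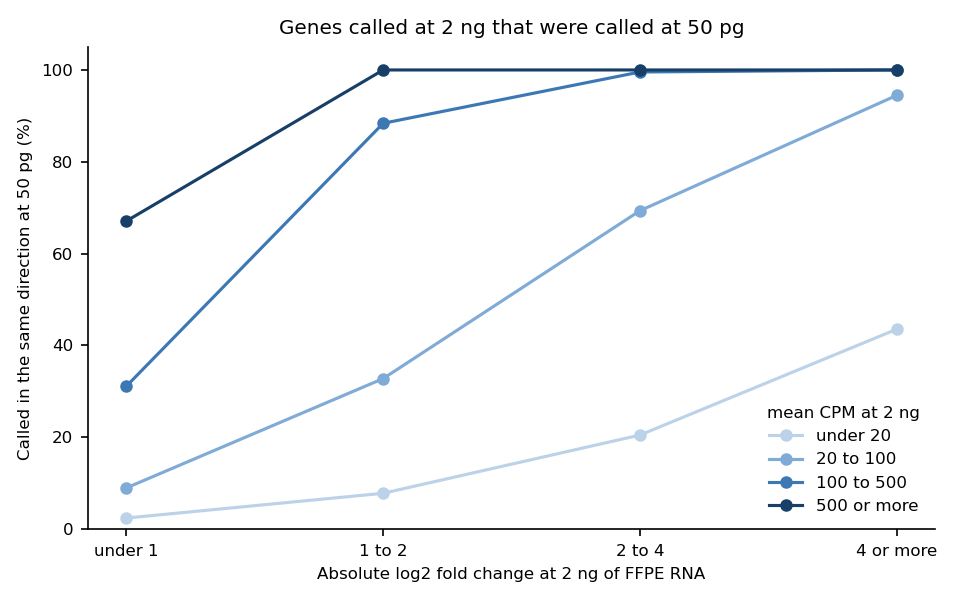
Share of the genes called at 2 ng of FFPE RNA that were called in the same direction at 50 pg (%), by absolute log2 fold change at 2 ng (x axis) and mean level at 2 ng (lines). The share climbs from 2.41% for weak changes under 20 CPM to 100% for the strongest changes at 100 CPM or more.

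Many genes called with no count in a group at 50 pg had counts in that group at 2 ng. For this tally 1 count over the 3 libraries was enough. Whether such single reads came from the sample itself was not tested. Among genes called lower in BC57 cells, 552 had no BC57 count at 50 pg, and of the 511 of them also tested at 2 ng, 305 had a BC57 count there. Among genes called higher, 164 had no urothelial count, and of the 149 also tested at 2 ng, 110 had one. At 2 ng Bub1, without a urothelial count at 50 pg, read 0.569 ± 0.2201 CPM in urothelium and 96.7 ± 4.58 CPM in BC57 cells (SD, n = 3). Lrp2 read 0.108 ± 0.187 CPM in urothelium and 107 ± 4.65 CPM in BC57 cells at that input. Creb3l1, without a BC57 count at 50 pg, read 1.23 ± 1.14 CPM in BC57 cells at 2 ng and 129 ± 14.8 CPM in urothelium. Shh read 0.0999 ± 0.173 CPM and 234 ± 7.38 CPM. Serpinb2 read 0.212 ± 0.366 CPM in urothelium and 349 ± 19.1 CPM in BC57 cells. In poly(A) RNA, where 91.3% of the genes tested differed (16370 of 17934), the log2 fold change was 6.47 for Bub1 and -6.78 for Creb3l1. The direction was the same in all of these comparisons. Changes at 2 ng were smaller than the 50 pg bound for some genes, such as Foxm1 (log2 fold change 4.86), Cenpi (4.86) and Creb3l1 (-6.62). For others, such as Lrp2 (9.48), they were larger.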

How the data were processed

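The submitters' processing notes name STAR, SAMtools, featureCounts and mm10; versions and the strand setting were not given in the sources used here. Raw counts per gene and log2 values were deposited by the authors. The deposited log2 values equal log2 of the count times 1000 over the upper quartile of the nonzero counts, plus 1, as recomputed (largest difference 5.15e-14). Of 39179 gene IDs, 37693 matched GENCODE M21 and 1486 did not.

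Genes were filtered with filterByExpr, libraries scaled by TMM, and groups compared with edgeR 4.0.16 (quasi-likelihood test, R 4.3.3) on the counts as deposited; interactions were contrasts over 12 libraries. P-values were adjusted by Benjamini and Hochberg over all genes tested, with a threshold of 0.05. Where a group had no count, the fold is a bound at 3 counts over its 3 libraries, which covers counting error only. Ratios with 1 to 3 counts carry exact 95% intervals, which cover counting error only. Detected genes had at least 5 counts in libraries thinned to 928722. The fits were tested on simulated data.

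Named genes were the 12 called genes with the largest fitted fold change at 50 pg in each direction (mean at least 50 CPM, no overlap). To these were added up to 4 called members per list with the largest fitted change, its 2 highest members, and 5 fixed genes (Gapdh, Actb, Upk2, Upk3a, Hmga2). Other genes named were chosen after their values were seen, and some genes under the rule are not reported here. The comparison, lists and rules were chosen with earlier results of these data known. Correlations of deviations over all genes showed no pairing of the BC57 and urothelial libraries at 50 pg of FFPE RNA by replicate number, and pairing of other libraries was not tested. Alternatives were DESeq2 1.42.0, limma 3.58.1 on the log2 values, other scalings and filters, thinning, a replicate block, a fit on all 36 Ovation libraries, a 2-fold null, and leaving out each library at 50 pg of FFPE RNA. Figures were drawn with matplotlib 3.10.9.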

Additional observations from a re-analysis of the deposited data

Results flagged for a closer look

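The difference between BC57 cells and urothelium was itself different between FFPE and FF RNA at 50 pg for 26 named genes, by the interaction of edgeR's quasi-likelihood fit. Among them, mt-Ta and the genes of few counts listed last followed a rule on the size of the estimate. All the others were chosen after their values were seen, so 26 is not a count by rule. The values below are FFPE difference minus FF difference on the log2 scale. Mitochondrial transcripts were on the positive side: mt-Nd6 (2.02), mt-Co1 (1.68), mt-Cytb (1.63), mt-Nd5 (1.62), mt-Nd4 (1.46) and the ribosomal RNAs mt-Rnr2 (1.05) and mt-Rnr1 (0.77). The alanine transfer RNA mt-Ta reached 4.32. It read 349, 337 and 398 CPM in FFPE and 9.45, 10.5 and 7.42 CPM in FF BC57 cells, against 123, 70.2 and 72.1 CPM and 55.5, 49.5 and 31.4 CPM in urothelium. The call of mt-Rnr1 was lost without any 1 of 3 libraries (adjusted p from 0.0665 to 0.115). It was also lost with DESeq2 (adjusted p = 0.0664). In edgeR it was lost with DESeq2's size factors (0.0825), with library totals only (0.0871) and with at least 10 counts required in every library of a group (0.0515).

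Of the nuclear RNAs listed, Neat1 (2.39), Malat1 (1.603) and Rn7sk (1.32) were positive, as was the keratin gene Krt18 (0.88). The abundant lincRNA Gm26917, like the other genes of this paragraph chosen after its values were seen, was negative (-1.43). The collagen genes Col1a2 (-2.50) and Col3a1 (-1.81) were negative. Col3a1 lost its call without any 1 of 5 libraries (adjusted p from 0.0503 to 0.143). With libraries thinned to equal depth both collagen calls were lost (adjusted p = 0.0565 for Col1a2 and 0.380 for Col3a1).

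The other 11 genes had 0 to 6 counts in all in a group at 50 pg of FFPE RNA, so the sizes depend on the prior count of the fit. In urothelium these totals were 0 for Hist1h2ac (7.42) and Foxm1 (6.77), 2 for Mthfd2 (4.998), 3 for Hist1h4j (5.15) and 6 for E2f7 (4.16). In BC57 cells they were 0 for Col27a1 (-7.82), 1 for Cygb (-6.14) and Gpld1 (-6.01), 2 for Rcbtb2 (-5.47) and Mmp2 (-4.37), and 3 for Rab15 (-4.67). Of these, E2f7 lost its call without several libraries (adjusted p from 0.0713 to 0.101), Mmp2 without BC57 library 2 (-3.82, adjusted p = 0.0669) and Col27a1 without urothelium library 2 (adjusted p = 0.0592). Foxm1 lost its call without any 1 of the urothelial FFPE libraries (adjusted p from 0.0529 to 0.0890). Thinned to equal depth, only Rcbtb2 and Rab15 of these 11 kept their calls. The adjusted p was then 0.0714 for Hist1h4j, 0.0863 for Hist1h2ac, 0.12 for Mthfd2, 0.134 for Gpld1, 0.236 for Col27a1, 0.267 for E2f7, 0.388 for Foxm1, 0.391 for Cygb and 0.685 for Mmp2.

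Between 50 pg and 2 ng of FFPE RNA, the differences of Hist1h2ac (7.06), Foxm1 (6.90), Tacc3 (3.11) and Rcbtb2 (-5.61) were different by the same test. In each case the value is the difference at 50 pg minus that at 2 ng. All 4 calls were lost with a replicate block (adjusted p from 0.0570 for Foxm1 and Rcbtb2 to 0.0796 for Hist1h2ac and Tacc3). Pairing of the 2 inputs by replicate number was not tested. Tacc3 was also lost without urothelium library 2 (2.99, adjusted p = 0.0590) and with thinned libraries (3.25, adjusted p = 0.10).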

How the results depend on the processing

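The count of genes that differed between BC57 cells and urothelium (4554) lay between 4021 and 4396 when 1 library was left out (higher 1652 to 1978, lower 2281 to 2470), and 3723 to 3892 of the 4554 genes were called again in the same direction. DESeq2 called 5148, limma 4824 and edgeR without a filter 5230. A fit on all 36 Ovation libraries called 7281 (3298 higher, 3983 lower), with 4551 of the 4554 among them. Testing against a 2-fold change left 3011 (1204 higher). For the fixation interaction (66), DESeq2 called 142 (79 positive, 63 negative), no filter 206 (128 and 78), and thinning left 13 negative calls; leaving out 1 library gave 62 to 74 (44 to 56 positive, 15 to 25 negative). For the input interaction (7), DESeq2 called 166 (74 and 92), no filter 100 (39 and 61), and thinning left 3 positive calls; leaving out 1 library gave 12 to 44 (6 to 19 positive, 2 to 28 negative). The cause of these changes was not tested. Leave-one-out fits of both interactions left out libraries at 50 pg of FFPE RNA alone. Other scalings moved the median of all genes by -0.05 to 0.04 in the main comparison and by up to -0.11 in the fixation interaction. The difference in detected genes was -1369 at 1 count or more and -906 at 10 or more.

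No pairing by replicate number was seen over all genes: same-numbered libraries had correlations of deviations of -0.011, -0.002 and -0.019. Libraries of unlike number had -0.013 to 0.024. A measure over all genes could miss a shared effect that is small or limited to some genes. With a replicate block 4117 genes were called in the main comparison (1836 higher, 2281 lower), 62 in the fixation interaction and 0 in the input interaction (0 positive, 0 negative), where DESeq2 without a block called 166 and edgeR with none had 1399 genes at an unadjusted p under 0.05.

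Of 274 values of single genes, none that was called changed sign under the alternatives run, and no uncalled one passed with the opposite sign. Changes of sign without a call were not counted. DESeq2 took 1 below its threshold and 6 above, thinning 13 and 3, the block 15 and 3, and leaving out a library 10 to 21 below. The 2-fold null took 29 below. Thinning kept 42 of the 66 fixation calls and ended, among named genes, those of Foxm1, Hist1h2ac, Hist1h4j, Mthfd2, Cygb, Gpld1, Mmp2, Col27a1, Col1a2, E2f7 and Col3a1. Genes at 5 to 20 CPM were measured with a median coefficient of variation of 0.661 and 0.740 at equal depth. Repeat libraries may be technical.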

Other observations

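Protein-coding genes differed by chromosome in their median log2 fold change, which was -0.08 over all of them, with 15.4% higher and 19.3% lower in BC57 cells. Among the autosomes, medians were lowest on chromosomes 14 (-0.53), 4 (-0.53), 1 (-0.48) and 9 (-0.36). They were highest on chromosomes 13 (0.31), 5 (0.27), 8 (0.23) and 17 (0.20), and without replication-dependent histone genes the median of chromosome 13 was 0.12. These values are descriptions without a test.

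Of the Y-linked genes 5 were tested, and they were counted in both samples beside Xist. Uty had 17, 56 and 58 counts in BC57 cells against 385, 363 and 637 in urothelium (log2 fold change -3.73). Kdm5d changed by -3.32 and Ddx3y by -2.44. Eif2s3y had 210, 80 and 111 counts against 222, 299 and 157 and did not pass, although it did without BC57 library 1 (-1.57, adjusted p = 0.0346 in edgeR's fit). Gm47283 had 20, 121 and 112 counts against 33, 36 and 45 and did not pass (0.80). The BC57 libraries thus held reads of both Xist and Y-linked genes.

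Genes annotated as antisense were higher in 6.77% and lower in 16.5% of 399 cases, and lincRNAs in 10.95% and 23.8% of 210. Whether reads of antisense genes can be told from those of their partners depends on the strand setting of the counting. The median summed exon length of protein-coding genes was 4136 bases for higher, 5784 for lower and 4518 for uncalled genes.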
